A study of Homo sapiens with 6 samples.

Results

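LY96 encodes MD-2, the small secreted protein that sits on the outer part of Toll-like receptor 4 (TLR4) and holds the lipid of bacterial lipopolysaccharide. The genes described here are LY96, the receptor genes TLR2, TLR3, TLR4 and TLR5, the co-receptor gene CD14, the adaptor genes MYD88 and TICAM1, and the kinase and ubiquitin ligase genes IRAK1 and TRAF6, 10 of 18132 genes measured. LY96 was chosen because its log2 level differed between the groups by 1.24, place 11 among all differences in favour of CDKL1 shRNA. Its difference is therefore a description with no test. The other 9 genes were added for their role in the same pathway, with results of the same comparison known. All 19 probe sets annotated with exactly 1 symbol equal to a member were read, and the brightest one stands for its gene.

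Expression was measured in DLD1, an established human colorectal adenocarcinoma line. The cells received a lentivirus coding for a short hairpin RNA (shRNA), directed either at the kinase gene CDKL1 or at no named target, the control shRNA. Each group held 3 samples with 1 Affymetrix array each, and all values are log2 levels normalised by the authors with RMA. The number of distinct shRNA sequences, the infected share of cells and the time between infection and harvest were not stated in the labels. Both groups carry a lentiviral vector.

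Toll-like receptors are transmembrane proteins that recognise microbial molecules: TLR2 binds bacterial lipopeptides, TLR4 with MD-2 binds lipopolysaccharide, TLR5 binds flagellin at the cell surface, and TLR3 binds double-stranded RNA in endosomes. CD14 hands lipopolysaccharide to the TLR4 and MD-2 pair. TLR2, TLR4 and TLR5 recruit the adaptor MyD88, which assembles IRAK kinases and the ubiquitin ligase TRAF6 and leads to NF-kappaB activity, whereas TLR3 uses the adaptor TRIF, the product of TICAM1. TLR4 can signal through both adaptors. In the intestine, epithelial cells face bacteria all the time, and low amounts of TLR4 and MD-2 are a known feature of colonic epithelial lines.

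The labelled cell type and the targeted gene were checked first. All 9 colon epithelial markers lay above the background range in every array, with EPCAM at 13.53 ± 0.04 in CDKL1 shRNA arrays and 13.52 ± 0.05 in control arrays (SD, n = 3 each). The background range is the span of means, 2.97 to 4.92, of the 7 background controls whose probes hold 10 to 16 G or C. VIL1 and LGALS4 lay only just above it, with lowest array values of 5.02 and 5.27. As 8 of 13 leukocyte markers also lay above it in every array, passing this range does not by itself show the cell type. CDKL1 lay within this range, at 4.17 ± 0.09 in CDKL1 shRNA arrays and 4.37 ± 0.18 in control arrays (SD, n = 3 each), and its log2 change of -0.19 did not pass (limma, adjusted p = 0.219). Without control shRNA replicate 3 it was -0.29 and passed (limma, adjusted p = 0.0489), so the knockdown is not shown by this probe set and groups are named as labelled. RNA integrity was read from ACTB and GAPDH, as the log2 level at the 3' end minus that at the 5' end. For ACTB it was 1.60 ± 0.115 in CDKL1 shRNA arrays and 1.40 ± 0.0133 in control arrays (SD, n = 3 each). For GAPDH it was 0.275 ± 0.026 in CDKL1 shRNA arrays and 0.203 ± 0.018 in control arrays (SD, n = 3 each). The groups did not overlap for either gene. The exact two-sided permutation test gave p = 0.1 for each, the smallest possible with 3 against 3.

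LY96 was above the background range in both groups and higher in every CDKL1 shRNA array. Its single probe set read 7.02, 7.29 and 7.08 in CDKL1 shRNA replicates 1, 2 and 3, against 6.03, 5.86 and 5.78 in control replicates 1, 2 and 3. The background control with 18 G or C averaged 6.02 in control arrays, close to LY96 there. The base content of the LY96 probes was not analysed, so expression in control cells is not shown by this range. The groups did not overlap, and the lowest CDKL1 shRNA array stood above the highest control array. The log2 difference was 1.24 with a 95% interval from 1.03 to 1.45, a 2.36-fold higher level. With any 1 array left out, the difference stayed between 1.16 and 1.31. CDKL1 shRNA replicate 2 had both the highest LY96 level and the highest ACTB 3' minus 5' difference, 1.73. With that ACTB measure as a covariate, the LY96 difference was 0.996 (SE 0.12), and without replicate 2 it was 1.16.

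**Figure D1:**
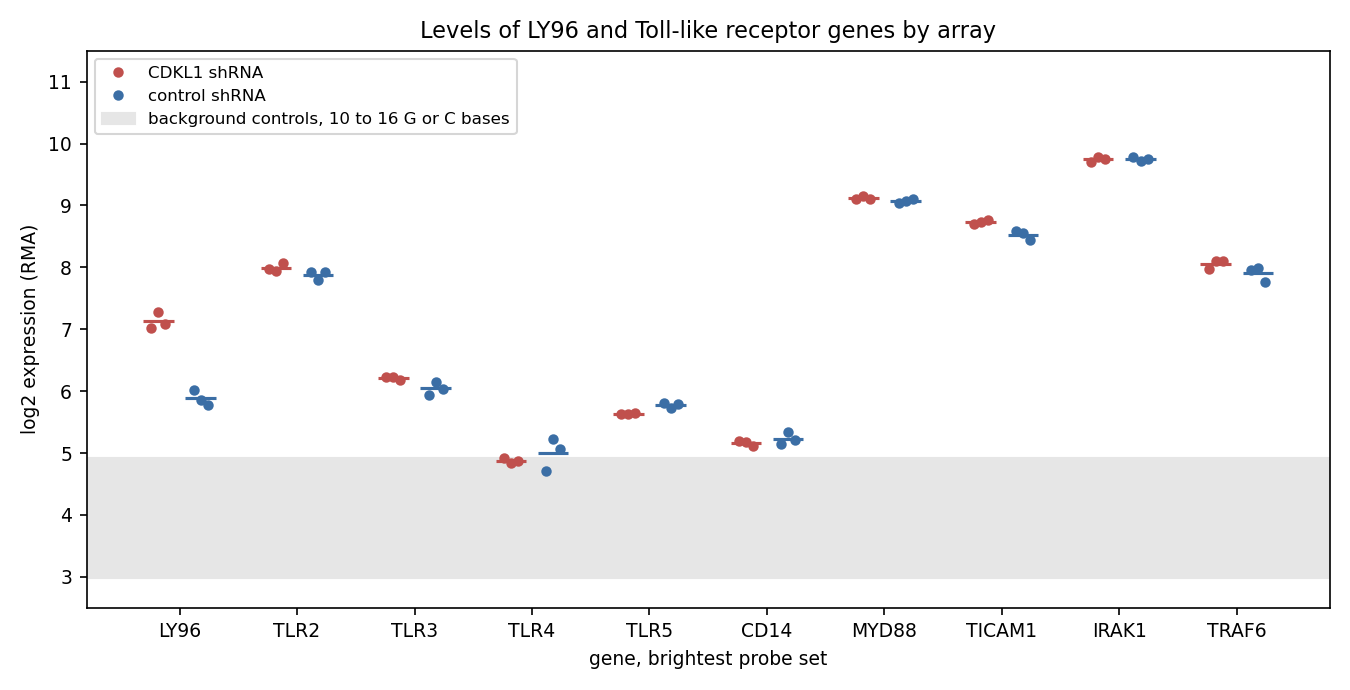
Log2 expression (RMA) of each of the 10 genes by its brightest probe set, with 1 point per array and a line at the group mean, CDKL1 shRNA arrays left of control shRNA arrays. The grey band is the range of background control means from 2.97 to 4.92. LY96 has separate groups 1.24 apart, and TLR4 lies at the upper edge of the band. Heights are not comparable between genes, because probe sets differ in brightness.

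TLR4, the receptor that MD-2 serves, was near background in both groups, and no probe set of it was higher in CDKL1 shRNA arrays. Its brightest probe set read 4.92, 4.84 and 4.87 in CDKL1 shRNA replicates 1 to 3, against 4.71, 5.23 and 5.07 in control replicates 1 to 3. The groups overlapped, and control replicate 1 was the lowest of the 6 arrays. The TLR4 difference of -0.12 on the log2 scale did not pass (95% interval -0.41 to 0.16; limma, adjusted p = 0.564). Without control replicate 1 it was -0.27 and passed (limma, adjusted p = 0.0415), so this call depends on that array. Without control replicate 2 it was -0.01. A further, dimmer probe set read 4.85, 4.77 and 4.37 in CDKL1 shRNA replicates 1 to 3, against 5.06, 5.08 and 5.05 in control replicates 1 to 3. There the groups did not overlap and the log2 change was -0.40, which did not pass over all probe sets (limma, adjusted p = 0.0675). The change of the dimmest probe set, which lay within the background range on every array, was -0.09. The background controls were slightly lower in CDKL1 shRNA arrays too, by -0.099 to -0.0051 for those with 10 to 16 G or C and by -0.21 to -0.068 for the 9 controls with 17 or more. Their part in the TLR4 values was not tested.

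CD14, which delivers lipopolysaccharide to TLR4 and MD-2, was just above the background range. It read 5.19, 5.18 and 5.12 in CDKL1 shRNA replicates 1 to 3, against 5.15, 5.35 and 5.21 in control replicates 1 to 3, and the groups overlapped. The CD14 difference of -0.07 on the log2 scale did not pass (95% interval -0.21 to 0.07; limma, adjusted p = 0.49). Both CD14 probe sets carry a suffix (_s or _x) for possible binding to related transcripts, so they may not read CD14 alone. Without control replicate 2 the CD14 difference was -0.02, and without control replicate 1 it was -0.11.

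The receptors for other ligands showed small differences of both signs, none of which passed. TLR3 read 6.23, 6.23 and 6.19 in CDKL1 shRNA replicates 1 to 3, against 5.95, 6.15 and 6.04 in control replicates 1 to 3. All 3 CDKL1 shRNA arrays were above all 3 control arrays, with a log2 change of 0.17 and a 95% interval from 0.03 to 0.31 (limma, adjusted p = 0.0966). TLR5 read 5.63, 5.63 and 5.65 in CDKL1 shRNA replicates 1 to 3, against 5.81, 5.72 and 5.79 in control replicates 1 to 3. Here the order was the opposite, with every CDKL1 shRNA array below every control array and a log2 change of -0.14, with a 95% interval from -0.24 to -0.03 (limma, adjusted p = 0.0792). The background controls with 17 and 18 G or C, close to TLR5 in level, differed by -0.11 and -0.13 in the same comparison. Their part in the TLR5 values was not tested.

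TLR2, the lipopeptide receptor, did not give 1 direction. By its brightest probe set it read 7.98, 7.94 and 8.07 in CDKL1 shRNA replicates 1 to 3, against 7.92, 7.80 and 7.93 in control replicates 1 to 3. These groups were only just apart, and the log2 change was 0.11 (95% interval from -0.02 to 0.25; limma, adjusted p = 0.238). The 2 other TLR2 probe sets had log2 changes of -0.03 and -0.17, and the mean of all 3 gave -0.03. Without control replicate 2 the brightest probe set gave 0.07, and with the ACTB covariate 0.20.

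TICAM1, the gene of the adaptor that TLR3 and TLR4 use, was the 1 of the 9 other genes that passed. It read 8.71, 8.74 and 8.77 in CDKL1 shRNA replicates 1 to 3, against 8.58, 8.56 and 8.44 in control replicates 1 to 3. The groups did not overlap, and the log2 change was 0.21 (SE 0.05, 95% interval from 0.09 to 0.33; limma, adjusted p = 0.0324), or 1.16-fold. The call is weak. It was lost without CDKL1 shRNA replicate 1 (limma, adjusted p = 0.0667), 2 (adjusted p = 0.0808) or 3 (adjusted p = 0.11) and without control replicate 2 (adjusted p = 0.0733) or 3 (adjusted p = 0.0957), in fits with fewer arrays, and it held without control replicate 1 (adjusted p = 0.0388). With ACTB 3' minus 5' as a covariate it was 0.20 (limma, adjusted p = 0.345). Of the 9 genes other than LY96, 1 rose, 0 fell and 8 did not pass, that is 11.1% called, where 16.8% of all 18132 genes were called in either direction, 8.97% higher and 7.79% lower. At an unadjusted p under 0.05, 3 of the 9 were called, against 5407 of all 18132 genes. Because the members were chosen with this comparison in view, nothing is read from that share. The groups did not overlap for 5 of the 9 genes, 4 higher and 1 lower in CDKL1 shRNA arrays, against 35.7% of all genes, 18.1% higher and 17.6% lower.

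The promoters of TICAM1, TLR3 and MYD88 are shown because they carry matches to the motifs of the transcription factors that act downstream of these receptors: TICAM1 is the member that rose, TLR3 is the receptor that uses its product, and MYD88 is the other adaptor. The sequences are RefSeq's for build GRCh38.p14, 250 bases before and 50 from the gene's start, 5' to 3' on the gene's strand. Capitals mark a match to the kappaB motif or to the core of the interferon-stimulated response element, the letters GAAA, any 2 bases and GAAA again, on either strand.
TICAM1 promoter, chr19:4831663-4831962, minus strand: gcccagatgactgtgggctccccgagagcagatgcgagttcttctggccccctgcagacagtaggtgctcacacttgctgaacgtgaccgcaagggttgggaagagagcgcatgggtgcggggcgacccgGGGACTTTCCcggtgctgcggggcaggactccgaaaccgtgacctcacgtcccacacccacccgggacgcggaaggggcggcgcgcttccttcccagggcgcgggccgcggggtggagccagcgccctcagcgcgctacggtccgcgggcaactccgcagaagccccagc
TLR3 promoter, chr4:186068906-186069205, plus strand: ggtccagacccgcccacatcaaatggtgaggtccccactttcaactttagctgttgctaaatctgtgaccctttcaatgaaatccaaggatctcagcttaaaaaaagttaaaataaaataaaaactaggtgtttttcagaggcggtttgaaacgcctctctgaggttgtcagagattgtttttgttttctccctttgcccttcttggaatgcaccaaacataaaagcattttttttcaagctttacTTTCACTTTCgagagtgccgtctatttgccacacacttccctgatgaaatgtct
MYD88 promoter, chr3:38138411-38138710, plus strand: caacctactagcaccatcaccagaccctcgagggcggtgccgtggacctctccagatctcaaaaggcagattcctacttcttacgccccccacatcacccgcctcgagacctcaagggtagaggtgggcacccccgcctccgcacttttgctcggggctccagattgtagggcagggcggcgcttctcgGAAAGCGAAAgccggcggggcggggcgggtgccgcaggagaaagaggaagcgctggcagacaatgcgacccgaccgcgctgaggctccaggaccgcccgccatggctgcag

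The kappaB match of TICAM1, GGGACTTTCC, lies 120 to 111 bases before the start. IRAK1, whose log2 change of -0.01 did not pass, also has a kappaB match, so 2 of the 9 member promoters searched hold one, against 11.3% of 35116 promoters. Those 35116 were not limited to measured genes, so they are not a matched set for the members. The promoter of LY96 was not searched for either motif. The response element core lies 61 to 52 bases before the start of MYD88 and spans the start in TLR3, where it reads TTTCACTTTC on the gene's strand. It was found in 2 of the 9 member promoters, against 3.57% of the same 35116 promoters. No match of one motif overlapped a match of the other in these promoters. A match describes letters in this window and says nothing about binding.

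The shared adaptor and its downstream enzymes were bright and differed little. MYD88 read 9.11, 9.16 and 9.11 in CDKL1 shRNA replicates 1 to 3, against 9.04, 9.07 and 9.10 in control replicates 1 to 3. Every CDKL1 shRNA array was higher, but by a log2 change of only 0.05, with a 95% interval from -0.05 to 0.16 (limma, adjusted p = 0.458), and its 4 further probe sets had log2 changes from -0.04 to 0.03. IRAK1, the kinase that MyD88 brings to the receptor, read 9.70, 9.79 and 9.75 in CDKL1 shRNA replicates 1 to 3, against 9.78, 9.73 and 9.75 in control replicates 1 to 3. The groups overlapped, and the log2 change of -0.01 had a 95% interval from -0.11 to 0.10 (limma, adjusted p = 0.938). TRAF6, the ubiquitin ligase that IRAK1 activates, read 7.98, 8.10 and 8.10 in CDKL1 shRNA replicates 1 to 3, against 7.96, 7.998 and 7.77 in control replicates 1 to 3. Its groups overlapped as well, and the log2 change was 0.15 (95% interval from -0.02 to 0.32; limma, adjusted p = 0.216). Without control replicate 3 the TRAF6 difference was 0.08. With the ACTB covariate it was 0.05, and that of MYD88 was 0.01.

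**Figure D2:**
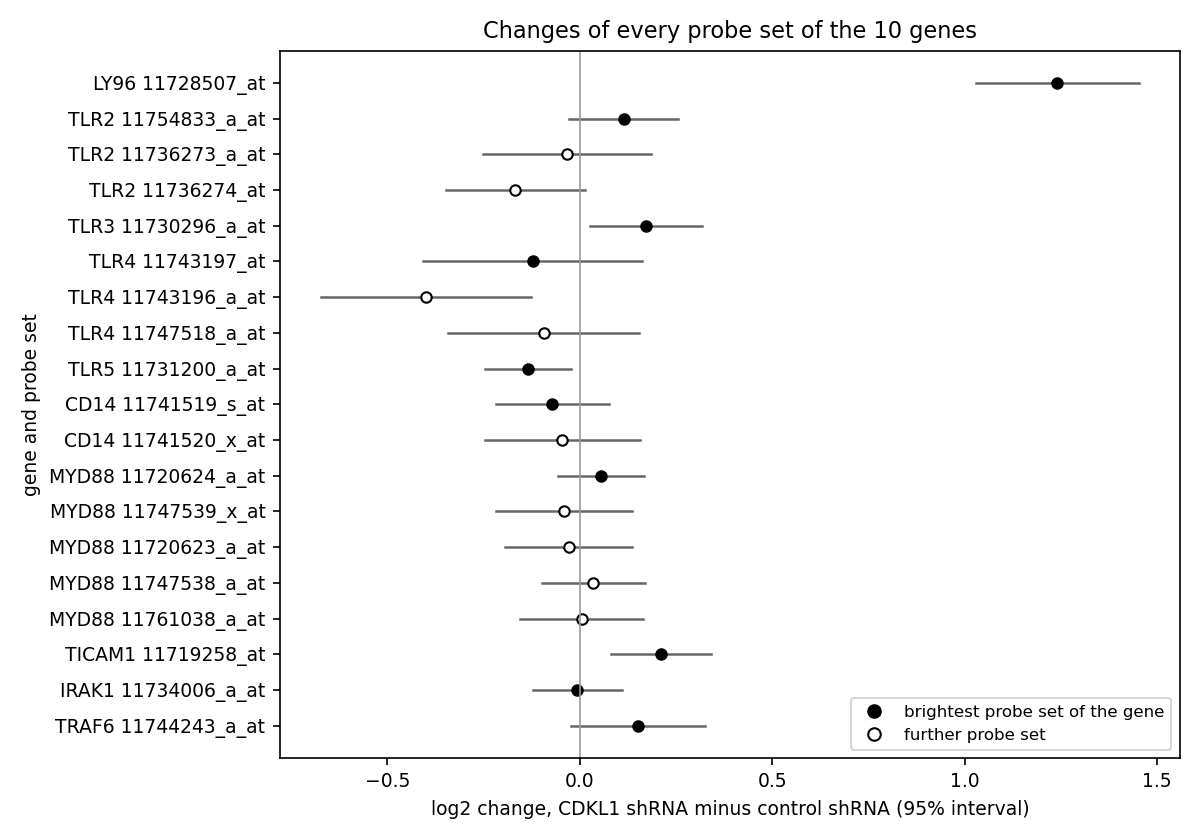
Log2 change (CDKL1 shRNA minus control shRNA) of all 19 probe sets of the 10 genes with 95% intervals from the fit over all probe sets, filled for the brightest probe set of a gene and open for the others. LY96 lies at 1.24, while all other points lie between -0.40 and 0.21.

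Across the 18 probe sets of the 9 other genes, 1 passed over all probe sets, that of TICAM1 (limma, adjusted p = 0.0479), against 12.6% of 49293 probe sets. For 6 of the 10 genes, LY96 and TICAM1 included, there was only 1 probe set, so no second reading of the same transcript was available.

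The wider pathway was followed in 62 further genes taken by role, of which 59 were measured. TICAM2, IRAK4 and RIPK1 were not analysed here. Of the 59, 9 rose, 3 fell and 47 did not pass, and their median log2 change was -0.01, as over all genes. The called share was 20.3%, against 16.8% of all genes. Target genes made up 6 of the 12 called, and those 6 were part of earlier results of these arrays, so nothing is read from that share.

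None of the 7 further receptor genes (TLR1, TLR6 to TLR10 and CD180) passed with limma, where 16.8% of all genes did. At an unadjusted p under 0.05 also 0 of the 7 were called, against 5407 of all 18132 genes. The changes of these 7 ran from -0.14 to 0.09 on the log2 scale. Only 3 of them lay above the background range in every array. Of the 7 genes of ligand delivery and co-receptors, 0 were called, also 0 at an unadjusted p under 0.05. In this list 4 genes lay above the background range in every array and 3 within it. Those within it were the lipopolysaccharide-binding protein gene LBP, the scavenger receptor gene CD36 and the gene LY86, which encodes the MD-2 relative MD-1. LY86 was at 4.61 ± 0.07 in CDKL1 shRNA arrays and 4.68 ± 0.20 in control arrays (SD, n = 3 each). Its log2 change was -0.07 (limma, adjusted p = 0.7), and a difference in a gene at this level may come out too small.

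Of 6 genes that fold and carry the receptors, 1 rose, 1 fell and 4 did not pass, 33.3% called against 16.8% of all genes. TMED7, a p24 cargo protein known to take part in TLR4 transport, rose to 10.02 ± 0.10 in CDKL1 shRNA arrays, against 9.58 ± 0.05 in control arrays (SD, n = 3 each). Its log2 change was 0.44 (SE 0.06; limma, adjusted p = 0.00359), with the same sign in 4 of 4 probe sets. TMED7 forms a read-through transcript with TICAM2, which the array may read as TMED7. CNPY4, an endoplasmic reticulum protein known to regulate the amount of TLR4 at the cell surface, fell to 5.73 ± 0.10 in CDKL1 shRNA arrays, against 6.19 ± 0.06 in control arrays (SD, n = 3 each), a log2 change of -0.46 (SE 0.06; limma, adjusted p = 0.00363). CNPY4 had only 1 probe set. Background controls of similar level, those with 17 and 18 G or C, differed by -0.11 and -0.13. Their part in the CNPY4 values was not tested. The general TLR chaperone gene HSP90B1 had a log2 change of -0.01 and its co-chaperone gene CNPY3 of -0.07. RAB11A, the gene of a GTPase of recycling endosomes, had one of 0.13 and UNC93B1, the gene of the carrier of endosomal receptors, one of -0.07, and none of these 4 passed. The calls of TMED7 and CNPY4 held with any 1 array left out, and were lost with the ACTB covariate (limma, adjusted p = 0.104 for TMED7 and adjusted p = 0.11 for CNPY4), although the changes were then 0.48 and -0.50.

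Of the 4 measured adaptors and receptor inhibitors 0 passed, against 16.8% of all genes. At an unadjusted p under 0.05, 1 of the 4 was called, against 5407 of all 18132 genes. Of 17 measured kinases and ubiquitin enzymes 1 rose and 2 fell, 17.6% called, a share near the 16.8% of all genes. CHUK, the gene of the IKK-alpha kinase, rose by 0.19 (limma, adjusted p = 0.0425), and this call was lost with any 1 array left out (adjusted p = 0.0585 to 0.115), after a further quantile normalisation (adjusted p = 0.0601) and after subtraction of array medians (adjusted p = 0.0621). MAP3K8, the gene of the TPL2 kinase that links these receptors to ERK, fell by 0.21 (limma, adjusted p = 0.0157). It lost its call without CDKL1 shRNA replicate 2 (adjusted p = 0.0541) or 3 (adjusted p = 0.0627) or without control replicate 3 (adjusted p = 0.0602). PELI2, a ubiquitin ligase gene of the Pellino family, fell by 0.38 (limma, adjusted p = 0.0228) from within the background range, and 1 of its 2 probe sets had the opposite sign. Its call was lost without CDKL1 shRNA replicate 1 (adjusted p = 0.0802) or 3 (adjusted p = 0.0822) and without control replicate 1 (adjusted p = 0.0529) or 3 (adjusted p = 0.071). With the mean of a gene's probe sets, PELI2 was at -0.14 (limma, adjusted p = 0.231) and MAP3K8 at -0.28 (adjusted p = 0.0579), and neither was called. None of these 3 calls held with the ACTB covariate, where CHUK was at 0.19 (limma, adjusted p = 0.346), MAP3K8 at -0.18 (adjusted p = 0.287) and PELI2, larger in size, at -0.60 (adjusted p = 0.075).

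IRF7, a transcription factor of type I interferon induction, was the 1 of 5 transcription factor genes that passed. This share of 20% is near the 16.8% of all genes. IRF7 read 9.95 ± 0.03 in CDKL1 shRNA arrays and 9.60 ± 0.03 in control arrays (SD, n = 3 each), a log2 change of 0.35 (SE 0.04; limma, adjusted p = 0.00208; adjusted p = 0.125 with the ACTB covariate). RELA, NFKB1, IRF3 and IRF5 did not pass, with log2 changes from -0.08 to 0.15.

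Of 13 genes that Toll-like receptors are known to induce, 6 rose, 0 fell and 7 did not pass. The called share was 46.2%, all higher, where 8.97% of all genes were called higher and 16.8% in either direction. The 6 were the chemokine genes CXCL3 (log2 change 1.13), CXCL8 (0.99), CXCL2 (0.54), CXCL1 (0.44) and CCL20 (0.37) and the feedback inhibitor gene TNFAIP3 (0.41), with adjusted p from 0.000105 to 0.00419 (limma). They were part of the earlier results of these arrays, so they are no independent sign of receptor activity. The 7 that did not pass were NFKBIA, IL6, IL1B, TNF, CCL5, CXCL10 and IFNB1, with log2 changes from -0.20 to 0.08, of which TNF, CXCL10 and IFNB1 lay within the background range in every array. CXCL8 (limma, adjusted p = 0.0148) and CXCL3 (adjusted p = 0.0246) were the 2 pathway genes still called with the ACTB covariate. CXCL1 had a log2 change of only 0.05 (limma, adjusted p = 0.622) in its probe set without the _s or _x suffix, and CXCL1, CXCL2 and CXCL3 are close relatives that may share signal.

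**Figure D3:**
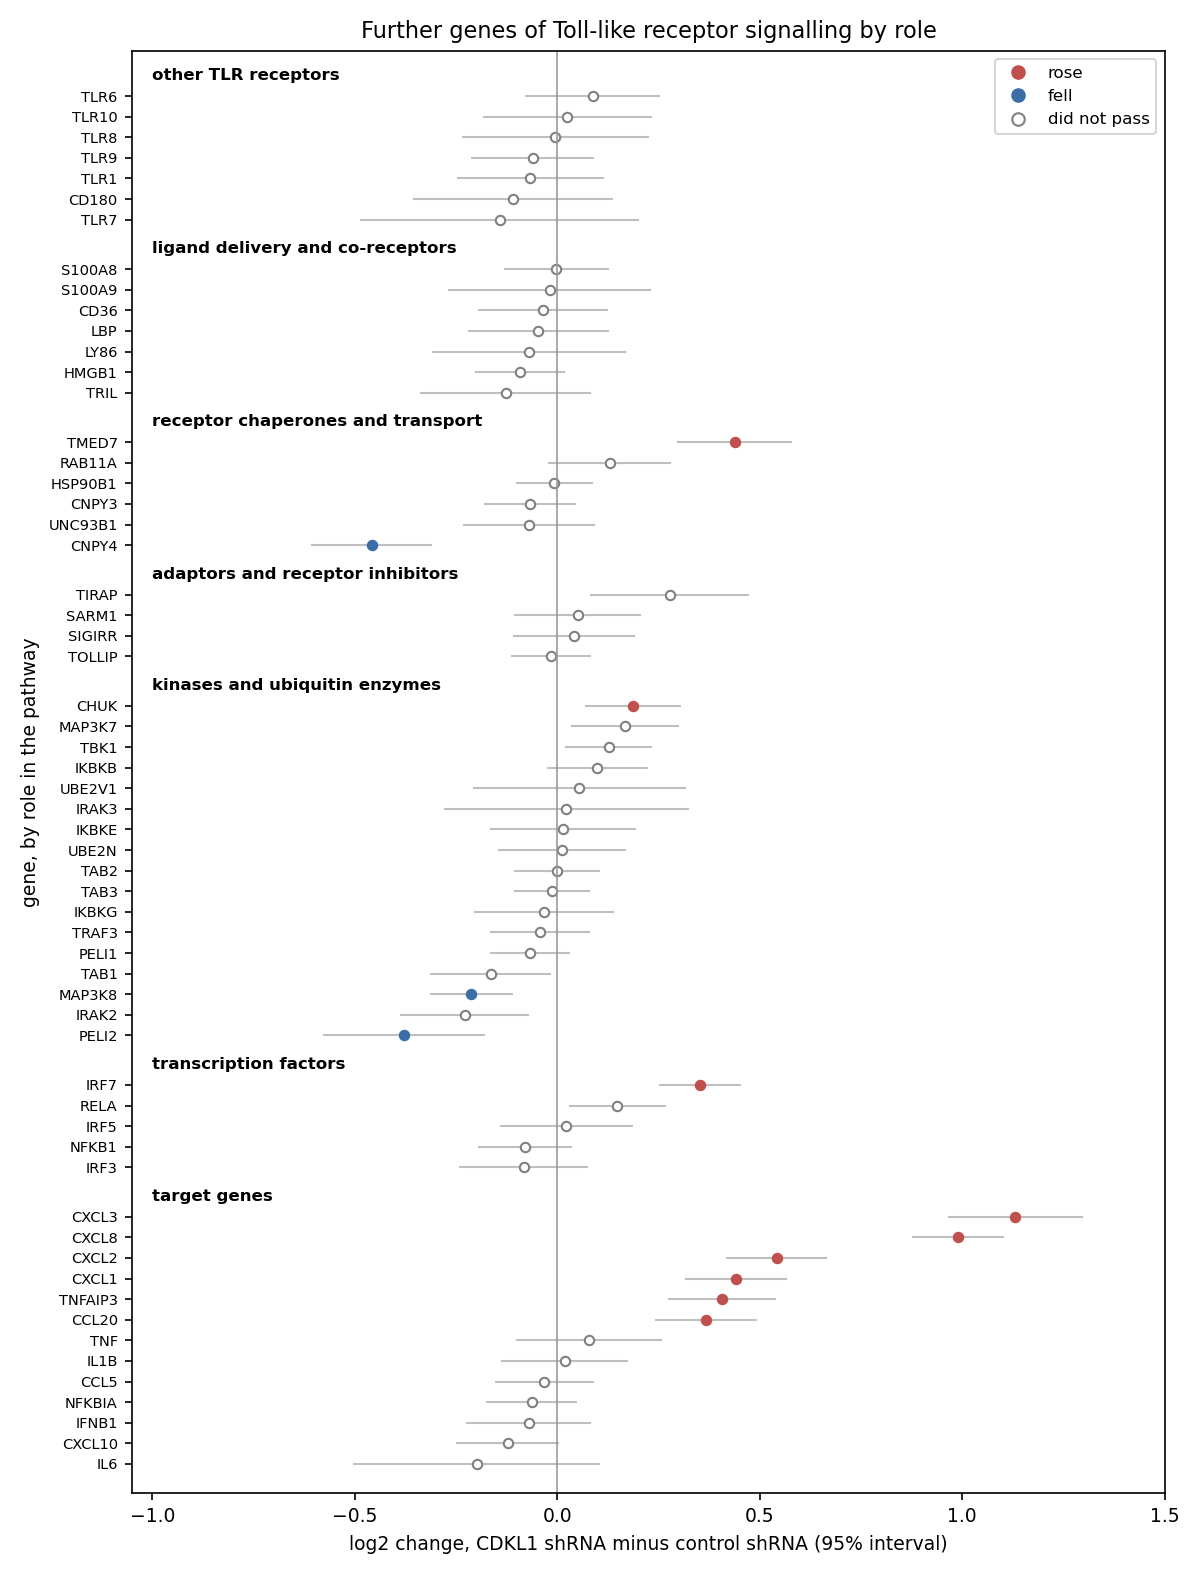
Log2 change (CDKL1 shRNA minus control shRNA) with 95% intervals of the 59 further pathway genes, grouped by role and ordered by size within a role, with filled points for genes past an adjusted p of 0.05. Receptor and ligand delivery genes hold no filled point, and 6 of the 13 target genes do.

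Because LY96, TLR4 and CD14 are typical of macrophages and monocytes, 13 measured leukocyte markers were read in the same arrays. The sum of their log2 levels ran from 71.9 to 73.5 in CDKL1 shRNA arrays and from 71.8 to 72.7 in control arrays. Of the 13, 8 lay above the background range in every array, 3 within it and 2 above it in some arrays only. Those above included TYROBP, at 7.24 ± 0.04 in CDKL1 shRNA arrays and 7.26 ± 0.08 in control arrays, and CSF1R, at 6.37 ± 0.04 in CDKL1 shRNA arrays and 6.31 ± 0.01 in control arrays (SD, n = 3 each). Those within the range were the defining leukocyte gene PTPRC, the integrin gene ITGB2 and LYZ. The part of other cells in the LY96 values was not tested. The scavenger receptor gene CD163 rose by 0.65 (SE 0.06; limma, adjusted p = 0.000772), to 5.21 ± 0.04 in CDKL1 shRNA arrays, against 4.56 ± 0.09 in control arrays (SD, n = 3 each), the control level being within the background range. The lysosomal protein gene CD68, which is also made by other cells, rose by 0.39 (limma, adjusted p = 0.0171). CD68 lost its call without CDKL1 shRNA replicate 2 (adjusted p = 0.0512) or 3 (adjusted p = 0.0627) or without control replicate 1 (adjusted p = 0.0544) or 2 (adjusted p = 0.0607). The remaining 11 markers did not pass, so 15.4% of the 13 were called, a share near the 16.8% of all genes. In bulk arrays a change in the share of cells that express a gene and a change in the level per cell cannot be told apart. Of the epithelial markers, KRT20 rose by 0.52 (limma, adjusted p = 0.000746), VIL1 had a log2 change of -0.57 (adjusted p = 0.019) and 7 did not pass. That is 22.2% of 9 called, against 16.8% of all genes. The VIL1 call was lost without control replicate 1 (adjusted p = 0.0639) or 3 (adjusted p = 0.0601), and with the ACTB covariate its change was -0.16 (adjusted p = 0.507). The other 3 markers kept about their size with that covariate but were no longer called, with KRT20 at 0.49 (limma, adjusted p = 0.0651), CD163 at 0.59 (adjusted p = 0.0676) and CD68 at 0.36 (adjusted p = 0.265).

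The 5 genes whose values followed LY96 most closely over the 6 arrays were CPA4, CXCL3, TUBA1A, APP and SELENOM. Likeness was the root mean square difference between log2 values centred on each gene's mean, which was 0.0944 for the carboxypeptidase gene CPA4, 0.101 for the chemokine gene CXCL3, 0.105 for the tubulin gene TUBA1A, 0.105 for the amyloid precursor gene APP and 0.114 for the selenoprotein gene SELENOM. All 5 were higher in CDKL1 shRNA arrays, with log2 differences from 1.13 to 1.29 by their brightest probe sets, as the choice by likeness to LY96 fixes. Over all probe sets, the difference ran from 0.60 to 1.23 for CPA4 (3 probe sets) and from 0.28 to 1.44 for APP (13). For CXCL3 (2) it ran from 1.13 to 1.35 and for TUBA1A (2) from 1.28 to 1.29, while SELENOM had 1 probe set. With 6 arrays in 2 groups, likeness mostly reflects a shared size of the group difference.

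**Figure D4:**
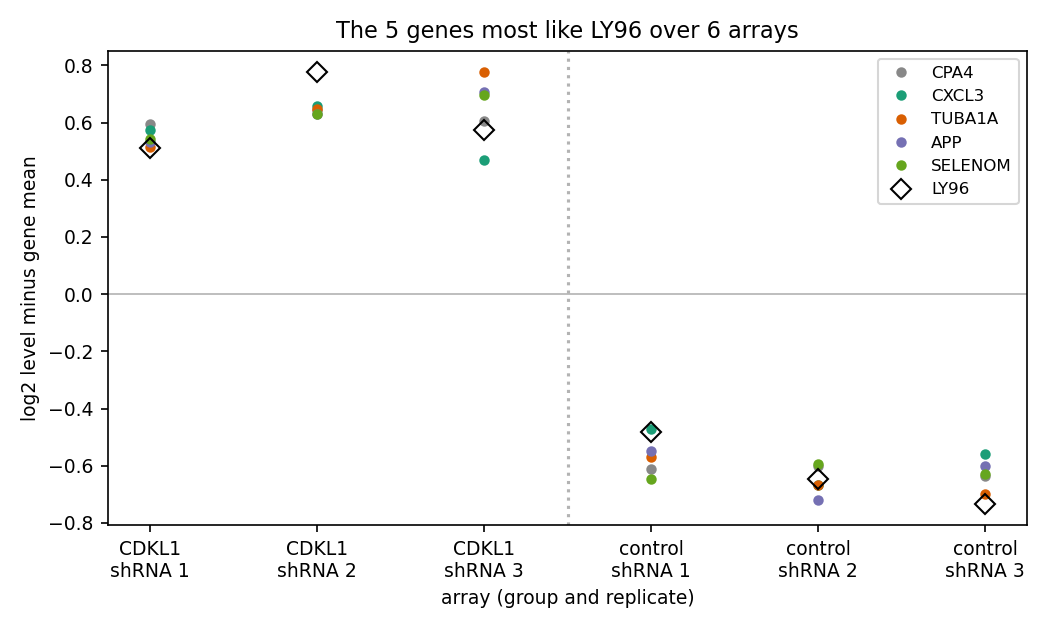
Log2 level minus the gene's own mean over 6 arrays for LY96 (diamonds) and the 5 genes most like it (points), CDKL1 shRNA arrays on the left and control shRNA arrays on the right. All 6 genes are above 0 in the 3 CDKL1 shRNA arrays and below 0 in the 3 control arrays.

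The genes that lie next to LY96 on chromosome 8 did not share its difference. By order in the RefSeq table, the nearest measured genes are TMEM70 on one side, with a log2 change of 0.0031, and JPH1 on the other, with -0.13 (limma, adjusted p = 0.975 and adjusted p = 0.0684). Over the 6 nearest measured genes, chosen by position after values were seen, log2 changes ran from -0.37 to 0.22. ELOC, an elongin subunit gene, had a change of 0.22 (limma, adjusted p = 0.0281), and the RNA-binding protein gene STAU2 had one of -0.37 (adjusted p = 0.0155). ELOC was called only in the fit without control replicate 3 when arrays were left out singly (adjusted p = 0.0392, against adjusted p = 0.0517 to 0.0795 without any other array), and STAU2 lost its call without control replicate 2 (adjusted p = 0.0565). With the ACTB covariate neither was called, with ELOC still at 0.21 (limma, adjusted p = 0.306) and STAU2 at -0.15 (adjusted p = 0.438), and with the mean of its probe sets STAU2 was at -0.17 (adjusted p = 0.0585). JPH1 passed after a further quantile normalisation (limma, -0.16, adjusted p = 0.0346) and among genes above background only (adjusted p = 0.0427).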

How the data were processed

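The deposited table holds log2 expression values of 6 Affymetrix arrays, 3 of DLD1 cells with CDKL1 shRNA and 3 with control shRNA, and 49395 probe sets. The log2 values were made by the authors with RMA, per the submitters' processing notes, which name no version or settings. Differences of dim probe sets come out too small after RMA. The number of arrays limits the precision. Whether the samples were separate cultures is not stated, so the p-values rest on a spread that may be technical. 0 columns were left unused.

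Gene names came from the annotation of the array platform: 44988 had 1 symbol, 1832 several and 2473 none, and 102 control probe sets were left out. Entrez identifiers of 44961 probe sets with 1 symbol were found in the RefSeq table, where 0 symbols differed. A gene was read from its brightest probe set over the 6 arrays. limma 3.58.1 in R 4.3.3 (lmFit, eBayes, two-sided, group as the only term) was fitted to all 18132 genes and, separately, to all 49293 non-control probe sets, with Benjamini-Hochberg adjustment and a threshold of 0.05. The fit was tested on simulated data. Lists, members and alternatives were chosen with earlier results of these data known. The text names all members, CDKL1, every pathway gene or marker past the threshold, and the 5 genes most like LY96; neighbours of LY96, and other genes given with values, were chosen after values were seen. Motifs were searched with Python 3.11.15. Alternatives are given in the closing part.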

Additional observations from a re-analysis of the deposited data

How the results depend on the processing

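LY96 kept its sign under all 13 alternatives and stayed between 1.16 and 1.31 in all of them except the fit with the ACTB 3' minus 5' covariate, where it was 0.996. The count of 3040 genes past the threshold was 1633 to 2399 with 1 array left out, in fits with fewer arrays. It was 1803 with the replicate number as a block and 219 with the ACTB covariate, both with fewer degrees of freedom. The groups did not overlap in the ACTB measure, so the fit with it separates group and measure poorly. With it, the SE of TMED7 was 0.113, against 0.0595 without it, and that of CHUK 0.0967, against 0.0496, at similar changes. For VIL1 the SE was 0.122, against 0.119, at a smaller change. After a further quantile normalisation the count held 1542 higher and 1689 lower, and for its other alternatives it was within 1.5 times of 3040. Over the 9 other members, 0 to 2 passed with 1 array left out, 0 with the replicate block (TICAM1, limma, adjusted p = 0.0912) and 0 with the ACTB covariate. Over their 18 probe sets, 0 passed in each fit with 1 array left out, 0 with the block, 0 after a further quantile normalisation and 0 with the ACTB covariate. No pairing by replicate number was seen: deviations from the group means correlated over genes at -0.0289, -0.121 and 0.0699 between samples of the same number, and not every sample correlated best with its own number. With 3 samples per group this check cannot show that the samples were unpaired. Of the 59 pathway genes 2 passed with the ACTB covariate, against 12 without it. CDKL1 ranged from -0.29 to -0.12 with 1 array left out. No member lay above all background control probe sets, whose means reach 10.74 at the highest content of G and C, so 0 of 10 genes then counted as above background, against 9. The base content of the members' own probes was not analysed. Signs of values near 0 turned: TLR2 was -0.0294 with the mean of its probe sets, IRAK1 was 0.0049 after subtraction of array medians and -0.0284 to 0.0173 with 1 array left out, and TMEM70 was -0.0226 to 0.0301 with 1 array left out, -0.0239 after quantile normalisation, -0.0064 with the ACTB covariate and -0.0904 with the mean of its probe sets. The causes of these moves were not tested.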
